A study of Mus musculus with 7 samples.

Results

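The genes described here are the Ifi200 family members Ifi202b, Ifi203, Ifi204, Ifi205, Aim2 and Mnda, which lie in a cluster on mouse chromosome 1. They were selected by name, with the levels in the different mouse lines already known, and every array probe whose gene name is 1 of these 6 is given. Of the 6 names, 5 occur on the array, on 10 of its 55681 probes, which carry 34836 gene names in all. No probe is named Ifi205. The probe named Mnda lists RefSeq accessions of both Ifi211, the current symbol of Mnda, and Ifi205, so it stands for these genes together.

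Expression was measured in 7 populations of mouse cells, 1 single-colour Agilent 60-mer array per population, in a study of where the muscle-forming cells of the dermis come from. The Sdc4+ group held Myf5SOR+ cells of the strain B6.129S4-Myf5tm3(cre)Sor/J, which has Cre knocked into the myogenic gene Myf5, Cspg4- cells of B6,FVB-Tg(Cspg4-cre)1Akik/J mice, transgenic for Cspg4-cre and here called the Cspg4-cre strain, and cells of outbred Crl:CD1(ICR) mice. The Sdc4- group held B195AP+ cells of the B195AP-Cre strain (what drives its Cre is not in the labels), Cspg4- cells of the Cspg4-cre strain and CD1 cells. The remaining population, Cspg4+ cells of the Cspg4-cre strain, has no Sdc4 label. Sdc4 encodes syndecan-4, a surface proteoglycan of muscle satellite cells, and Cspg4 encodes the NG2 proteoglycan of pericytes. The labels give 8 to 10 animals per phenotype and 10 to 200 ng of RNA, and no age, sort or treatment. For CD1, an outbred stock, the labels name no Cre, and the full name of the Cspg4-cre strain gives a mixed B6 and FVB background.

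Proteins of this family carry a HIN domain that binds DNA, and most also carry a pyrin domain that binds other proteins. Many of their genes are induced by interferons. Aim2 senses DNA in the cytosol and assembles an inflammasome. Ifi202b encodes p202, which lacks the pyrin domain, can hold back Aim2 signalling, and is known for levels that differ strongly between inbred mouse strains, B6 being low. Ifi204 encodes p204, which has been described as rising when muscle precursors differentiate and as binding Id proteins.

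Values are log2 processed signals relative to the 75th percentile of each array, so 0 is that percentile, and levels of different probes are not compared. Between 45.9% and 57.2% of the spots were well above background, as scored by the scanner software. The median SD between spots of a replicated probe was 0.063 to 0.082 on 6 arrays and 0.152 on the B195AP+ array, part of which carries streaks (its first 200 spot rows and first 130 columns). Spot error is the only technical error available, and 2 times its combined SD is used below to say which neighbouring levels cannot be told apart. Where the dimmer array was not well above background, a fold is given as "at least", measured against the dimmest value scored above background on that array, or the probe's own value where that is higher. The Sdc4 probe ranged from 1.98 on the B195AP+ array to 6.35 on the CD1 Sdc4+ array. Within both lines that hold both fractions it was higher in the Sdc4+ one, at 6.29 against 5.11 in Cspg4- and 6.35 against 5.28 in CD1 cells. Across lines the labels overlapped, since the Myf5SOR+ Sdc4+ array stood at 3.80, and the difference did not pass the test (adjusted p = 0.739 in limma). The satellite cell genes Pax7 and Myf5 were well above background on no array, while Cdh15 was so on all 7 and Myog, Des and Myh3, genes of differentiating muscle, on 5 each. All 6 dermal fibroblast markers were well above background on every array.

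The probes are shown by the first 30 of their 60 bases, because paralogs of this family resemble each other and the sequence says which transcript a value stands for. All member probes lie on mm9 chromosome 1, Aim2 at one end of the placed stretch and Ifi202b at the other, 497 kb away. The Ifi202b probes are A_51_P151182, whose ends lie at chr1:175892953-175893982 on the minus strand and which therefore spans an intron, and A_55_P2032167 at chr1:175892789-175892848. The nearest probe of another gene name to A_55_P2032167 is that of Gm7897, with 9 edits over 60 bases (85.0% identity). Capitals in the next pair mark bases that this alignment leaves unmatched.
Ifi202b A_55_P2032167: cTgCtCaaatataatacaTacaacaTccag
Gm7897 A_55_P2006084: cgTtGaaatataatacaCacaacaGccagT
The Gm7897 probe was well above background on 0 of 7 arrays, with values from -6.33 to -4.86. No other member probe had a probe of another gene name within 20 edits. The remaining probes on which the results turn, in lower case throughout, are the following.
Ifi202b A_51_P151182: attgacctcaaatgcagatgagtggtttct
Mnda A_55_P1962918: gtcacctctaaatgacagctttagtagtat
Aim2 A_55_P2080130: ctaagaaatcagtgatattggggtatgtga
Ifi204 A_55_P1975560: agtcgggagaacctctctggaaccatactt
Ifi203 A_55_P1988202: cacaattgctttctgatctgtactgacagt
Ifi203 A_55_P1966731: agtgagaggcatgagtgcatttgctatgga
The transcript sequences of the 4 lines were not examined here, and whether they match these probes equally well was not tested.

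Ifi202b had the widest range of the members. On the CD1 arrays probe A_51_P151182 read 5.06 in Sdc4+ and 4.95 in Sdc4- cells, and on the Cspg4- arrays 1.31 and 2.24. It read -3.64 in Cspg4+ cells, -5.40 in Myf5SOR+ cells and -5.74 in B195AP+ cells, the last 2 not well above background. As processed signals these are 8074 and 6549 units in CD1, 318 and 842 in Cspg4- cells, 14.2 in Cspg4+ cells, and 3.08 and 2.97 in Myf5SOR+ and B195AP+ cells. The order was thus CD1, then Cspg4-, then Cspg4+, with the other 2 lines at background. Among the arrays well above background, only the 2 CD1 arrays were closer than spot error for this probe (0.11 against 0.18). The Myf5SOR+ and B195AP+ values have no reliable order.

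Probe A_55_P2032167, which reads another stretch of the Ifi202b transcript, gave 4.97 and 4.75 in CD1 and 1.31 and 2.20 in Cspg4- cells. It gave -4.49 in Cspg4+, -5.51 in Myf5SOR+ and -5.79 in B195AP+ cells, all 3 not well above background. The probes differed by an SD of 0.30 over the 7 arrays. Probe A_51_P151182 lies in the streaked region of the B195AP+ array and A_55_P2032167 outside it, and both were at background there.

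**Figure D1:**
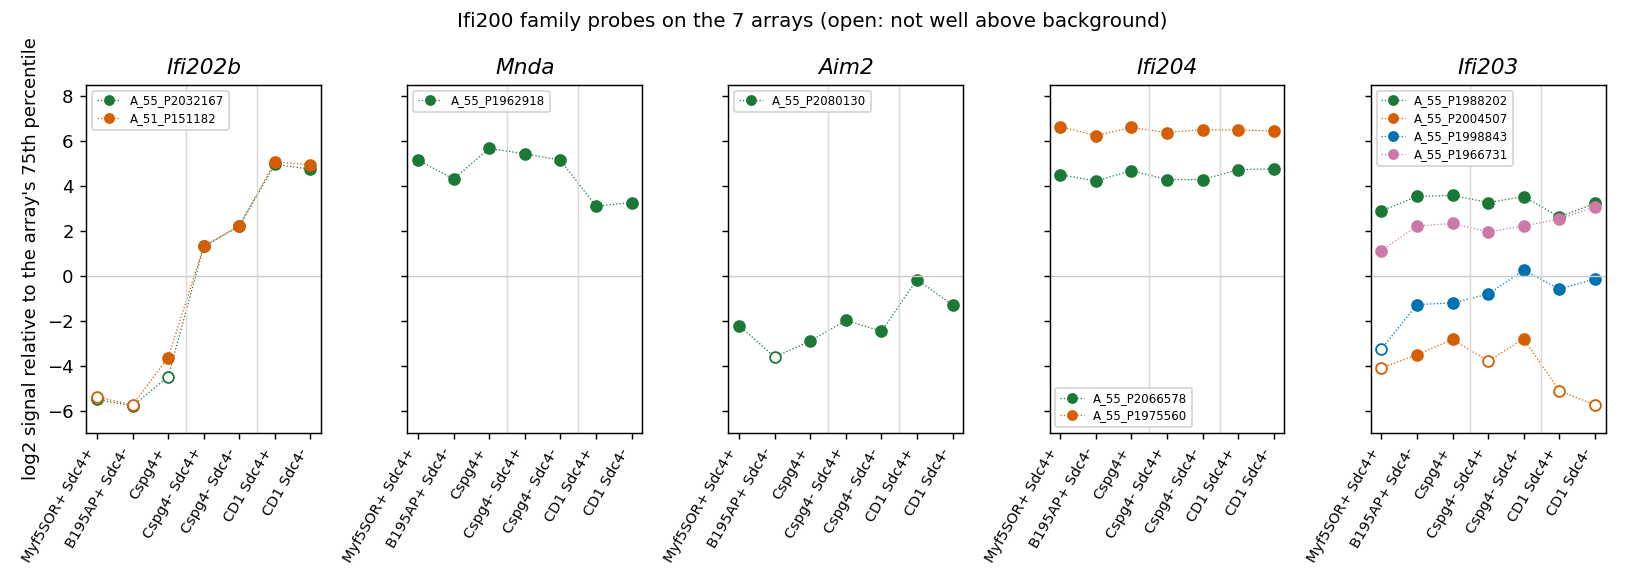
Level of each member probe (y axis, log2 signal relative to the 75th percentile of the array) on the 7 arrays (x axis, ordered by line), 1 point per array. Filled points are well above background and open points are not. Both Ifi202b probes step from background in Myf5SOR+ and B195AP+ cells to about 5 in CD1 cells, Mnda is lowest in CD1, Aim2 is highest in CD1, and the Ifi204 probes stay within 0.54.

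CD1 cells were set against Cspg4- cells within each Sdc4 fraction, where both arrays also share a slide row. With 1 array per population and members selected on this contrast, the differences are a description with no test. Ifi202b was 13.5-fold higher in CD1 than in Cspg4- Sdc4+ cells and 6.54-fold higher in the Sdc4- fraction by A_51_P151182, and 12.6-fold and 5.85-fold higher by A_55_P2032167. Aim2 was 3.53-fold and 2.24-fold higher in CD1. The Mnda probe went the other way, 5.03-fold lower in CD1 in the Sdc4+ and 3.70-fold lower in the Sdc4- fraction. Neither Ifi204 probe differed by more than 1.39-fold.

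Counted over the 10 member probes, 3 were past 2-fold higher in CD1 in both fractions (both Ifi202b probes and Aim2) and 2 were past 2-fold lower (Mnda and Ifi203 probe A_55_P2004507). Over all 29735 probes that were above background on 1 or more of these 4 arrays, 2.29% were higher and 2.25% lower by the same rule. The members were selected with this contrast known, so nothing is read from their excess. Ranked by the smaller of their 2 differences, the Ifi202b probes stood at places 47 and 58 of 29735. Aim2 stood at place 488. Ranked from the other end, Mnda stood at place 176. With normexp background correction the count of 5 became 3, with Aim2 at 0.92 and 0.43 and Ifi203 A_55_P2004507 at -0.66 and -0.59 in the Sdc4+ and Sdc4- fractions on the log2 scale.

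**Figure D2:**
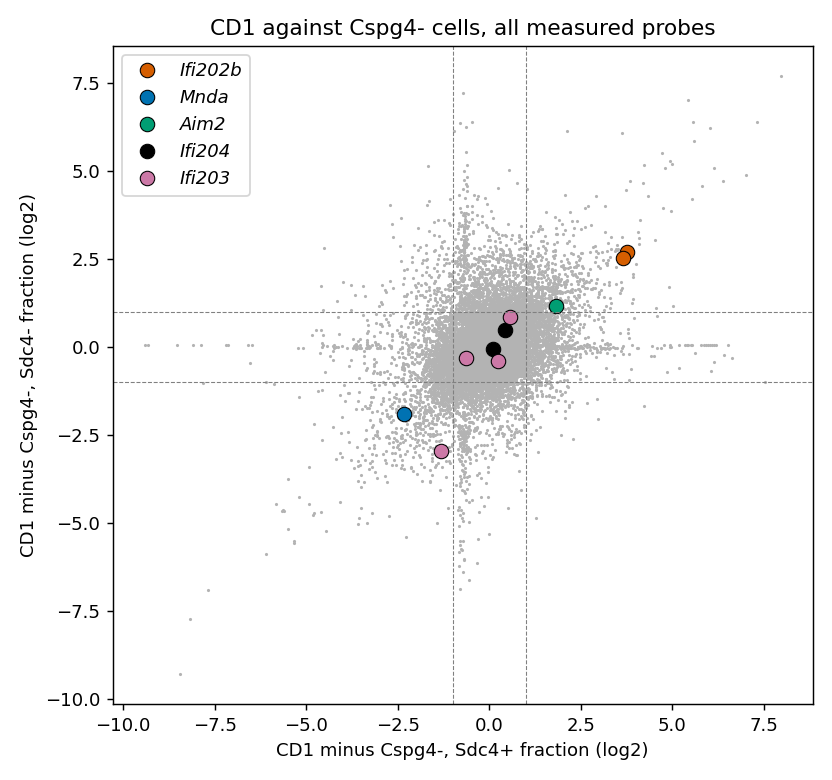
CD1 minus Cspg4- difference (log2) in the Sdc4+ fraction (x axis) and the Sdc4- fraction (y axis) for 29735 probes in grey and the 10 member probes in colour; dashed lines mark 2-fold. The Ifi202b probes lie at 3.66 to 3.75 and 2.55 to 2.71, Mnda at -2.33 and -1.89, and the Ifi204 probes near 0.

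Against the remaining lines the CD1 level of Ifi202b was a lower bound on a far larger difference. By A_51_P151182 it was at least 384-fold higher than in Myf5SOR+ cells (Sdc4+) and at least 411-fold higher than in B195AP+ cells (Sdc4-). Cspg4- cells were at least 28.5-fold above Myf5SOR+ and at least 62.9-fold above B195AP+ cells by the same probe. Over all probes well above background on either array of a pair, 13.6% were past 2-fold between CD1 and Myf5SOR+, 21.4% between CD1 and B195AP+, 8.49% between Cspg4- and Myf5SOR+ and 20.8% between Cspg4- and B195AP+. Of the member probes, 5 of 9 were past 2-fold higher and 1 of 9 lower in CD1 than in Myf5SOR+ cells, and 4 and 2 of 10 in CD1 against B195AP+ cells. The last 2 include Ifi203 A_55_P2004507, not well above background in CD1 cells, whose bound is only at least 1.33-fold. Cspg4- cells had 3 of 9 higher and 0 of 9 lower than Myf5SOR+ cells, and 4 and 0 of 10 against B195AP+ cells.

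Ifi202b also differed within the Cspg4-cre strain. Its signal by A_51_P151182 was 30.9-fold lower in Cspg4+ than in Cspg4- Sdc4+ cells and 58.9-fold lower than in Cspg4- Sdc4- cells. By A_55_P2032167 it was at least 33.5-fold and at least 62.2-fold lower. These were the only 2 of the 10 member probes past 2-fold the same way against both Cspg4- populations, and none was higher. Over 32992 probes, 1.00% were lower and 14.2% higher by this rule, so the Cspg4+ array as a whole had more probes above than below. Mnda read 5.67 in Cspg4+ cells against 5.44 and 5.15, differences of 0.24 and 0.52 that were past spot error but under 2-fold. Ifi204 A_55_P1975560 read 6.61 against 6.38 and 6.51, and differed from Cspg4- Sdc4- cells by less than spot error. The Cspg4 probe itself read 1.15 in Cspg4+ cells against 0.35 and 0.65 in Cspg4- Sdc4+ and Sdc4- cells, under 2-fold. It was higher still in CD1 Sdc4+ cells (1.18) and highest in B195AP+ cells. The summed linear level of 6 pericyte markers was 30.5 in Cspg4+ cells and 32.1 and 28.9 in the Cspg4- cells. The Cspg4+ label was thus not matched by a clear rise of these transcripts. Each population is 1 array, and fewer cells of a type and less RNA per cell cannot be told apart in such bulk samples.

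The Mnda probe, for a pyrin and HIN protein of the same cluster, read 5.15 in Myf5SOR+, 5.44 in Cspg4- Sdc4+, 3.10 in CD1 Sdc4+, 4.31 in B195AP+, 5.15 in Cspg4- Sdc4-, 5.67 in Cspg4+ and 3.26 in CD1 Sdc4- cells. It was well above background everywhere, and both CD1 arrays lay below the other 5. The CD1 arrays differed by less than spot error (0.16 against 0.18), as did Myf5SOR+ and Cspg4- Sdc4- cells. The B195AP+ value lies in the streaked region of that array.

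The Aim2 probe at chr1:175396036-175396095 read -0.16 in CD1 Sdc4+ and -1.30 in CD1 Sdc4- cells, the highest levels of the 7. It then read -1.99 in Cspg4- Sdc4+, -2.22 in Myf5SOR+, -2.46 in Cspg4- Sdc4-, -2.90 in Cspg4+ and -3.61 in B195AP+ cells, the last not well above background. The processed signals of this DNA sensor ran from 13.0 to 216 units, below the 75th percentile of every array.

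Ifi204 was the most even member. Probe A_55_P1975560 ran from 6.24 in B195AP+ to 6.64 in Myf5SOR+ cells, and A_55_P2066578 from 4.23 in B195AP+ to 4.76 in CD1 Sdc4- cells. No neighbours in the order of either probe differed by more than spot error. Arrays further apart in the order did for A_55_P2066578. CD1 minus Cspg4- was 0.44 (spot error 0.21) in Sdc4+ and 0.48 (0.19) in Sdc4- cells. Cspg4+ cells lay 0.39 (0.22) and 0.40 (0.20) above the Cspg4- Sdc4+ and Sdc4- cells. For A_55_P1975560 the CD1 minus Cspg4- differences were within spot error in both fractions.

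The 4 Ifi203 probes did not share a pattern. A_55_P1988202 ran from 2.62 in CD1 Sdc4+ to 3.58 in Cspg4+ cells, and A_55_P1966731 from 1.13 in Myf5SOR+ to 3.07 in CD1 Sdc4- cells, both well above background on all 7 arrays. A_55_P1998843 ran from -3.27 in Myf5SOR+, where it was not well above background, to 0.25 in Cspg4- Sdc4- cells. A_55_P2004507 lies in the streaked region of the B195AP+ array. It was well above background on 3 arrays only, at -3.52 in B195AP+, -2.80 in Cspg4- Sdc4- and -2.83 in Cspg4+ cells. In the Sdc4+ fraction neither CD1 (-5.12) nor Cspg4- (-3.80) reached that mark, so its place among the probes lower in CD1 rests on the Sdc4- fraction, where the fold was at least 2.19. CD1 minus Cspg4- was -0.65 and -0.31 for A_55_P1988202 but 0.57 and 0.85 for A_55_P1966731, so the direction for Ifi203 depended on the probe. The accessions that these 4 probes list had no match in the gene table used here.

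Between the Aim2 and Ifi202b probes the array holds 57 probes, of which 51 were above background on 1 or more of the 4 CD1 and Cspg4- arrays. The only 3 past 2-fold higher in CD1 in both fractions were the member probes of Ifi202b and Aim2, at the ends of the stretch. Lower in CD1 were 12 (23.5%, against 2.25% over all probes): the 2 member probes named above and 10 others under 6 names. Of the 51, 25 carry only an interval as their name, and 1 of these was lower. A list of 8 measured neighbour genes also holds Cadm3, Darc and Fcer1a, which have no probe in this stretch. With each gene read by its brightest probe, 1 of the 8 was lower in both fractions, Pyhin1 (current symbol Ifi209), and all 3 of its probes were. Its brightest, A_55_P2035509, read 2.76 and 3.30 in Cspg4- cells, 3.22 in Cspg4+ cells and 0.43 and -0.18 in CD1 cells.

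In the Sdc4+ fraction the largest differences of the stretch were those of TC1691508, a transcript without a gene symbol, named here after its values were seen. Its probe A_55_P2004007 read 1.63 and 1.82 in Cspg4- cells, 2.82 in Cspg4+ cells and -3.88 and -3.36 in CD1 cells. Pydc3 (current symbol Ifi208) again depended on the probe: A_55_P2001233 differed by -0.35 and -0.34, while A_55_P2036627, named after its values were seen, differed by -3.55 and -4.87. For A_55_P2036627 the CD1 arrays were not well above background, so it was at least 11.7-fold lower in Sdc4+ and at least 12.8-fold lower in Sdc4- cells. AI607873 (Ifi207) differed by 0.75 and 0.54 and Mndal by 0.23 and 0.62. The RefSeq table lists Tg(Cspg4-cre)1Akik, the transgene of the Cspg4-cre strain, among the synonyms of Ifi208, inside this cluster. Its part in the differences between the lines was not tested.

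**Figure D3:**
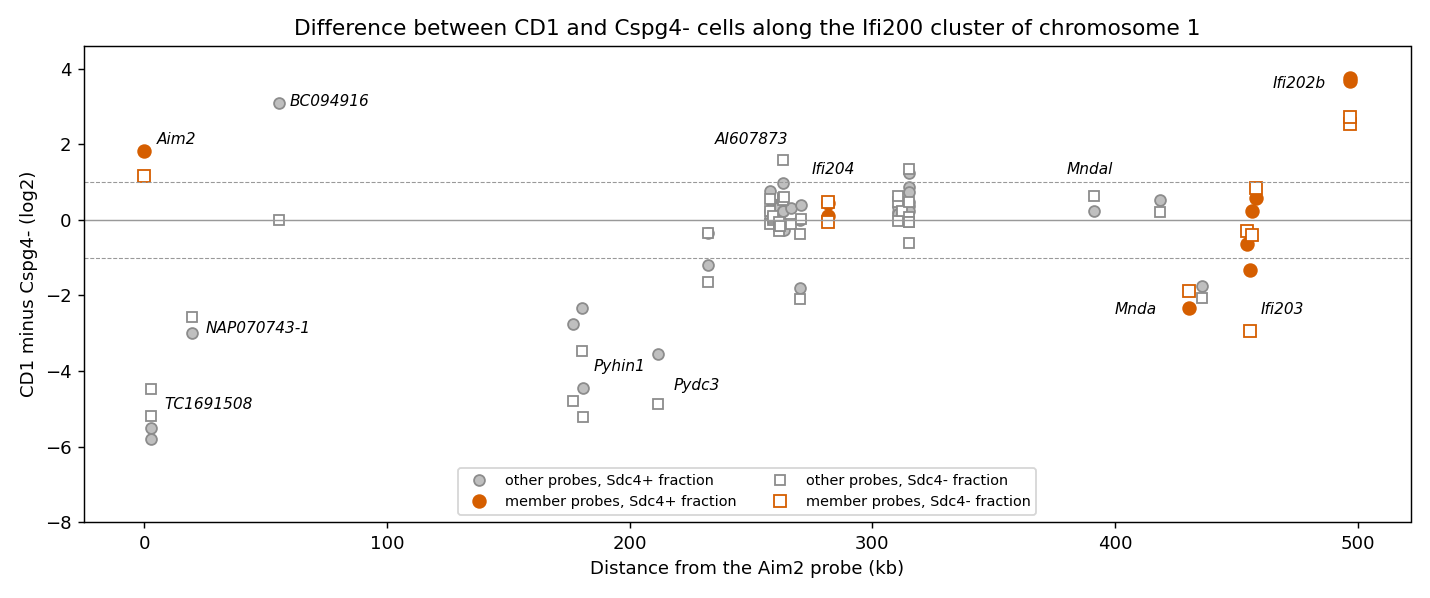
CD1 minus Cspg4- difference (y axis, log2) against distance from the Aim2 probe (x axis, kb) for the 51 measured probes of the stretch, in the Sdc4+ (circles) and Sdc4- (squares) fractions; dashed lines mark 2-fold. Member probes are orange. Aim2 and Ifi202b lie above 1 at the ends, while TC1691508, Pyhin1, Mnda and some Pydc3 probes lie below -1 in between.

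Interferon-induced genes differed between these lines in the direction opposite to Ifi202b and Aim2. Of 34 measured interferon-induced genes outside the cluster, 20 were past 2-fold lower in CD1 in both fractions and 0 were higher, against 2.10% lower and 2.28% higher over 21172 gene names. Their median difference was -1.73, beside -0.032 over all names. The 4 brightest were Isg15, a ubiquitin-like modifier (-2.55 in the Sdc4+ and -2.30 in the Sdc4- fraction), Oas1a, an RNA sensor (-2.75 and -2.02), Bst2, which tethers virus particles (-1.91 and -1.64), and Ifi27 (-0.68 and -0.35). The list and its place beside the members were chosen with earlier results known. Centred on each gene's mean over the arrays, the list's median was -1.15 and -1.36 in CD1 Sdc4+ and Sdc4- cells, -0.60 in Myf5SOR+ cells, and 0.57 to 1.06 in the other 4 populations. Mnda shared its 2 lowest arrays, both CD1, with this list, whereas Ifi202b was highest there.

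Among interferon receptors and signalling genes 5 of 17 were lower in CD1 and 0 higher, among them Irf7, Irf9 and Usp18, which are named after their values were seen. The 4 brightest of that list, Jak1, Irf1, Ifngr2 and Socs3, were not past 2-fold in both fractions. Among cytosolic nucleic acid sensors 3 of 14 were lower (Zbp1, Ifih1 and Dhx58), while Tmem173, which encodes the STING adaptor (-0.30 and -0.15), Irf3, Trex1 and Ddx58 were not past 2-fold in both. Of 10 inflammasome genes, among them sensors of other inflammasomes such as Nlrp3 and Nlrp1a, 1 was lower (Il18). The inflammasome protease gene Casp1 differed by -0.24 and -1.05, Casp4 by -0.41 and 0.09, Nlrp1a by 0.59 and 0.92 and Txnip by -0.05 and -0.37.

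Among 19 described binding partners of the proteins, 1 was past 2-fold higher in CD1 (Id1, an inhibitor of helix-loop-helix factors, by 1.11 and 1.61) and 0 were lower. The 4 brightest were Ubtf, Jun, Rela and Id3. Id3 differed by 0.55 and 1.1, Ubtf by 0.24 and 0.16, Rela by -0.13 and 0.37 and Jun by -1.26 and -0.12.

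**Figure D4:**
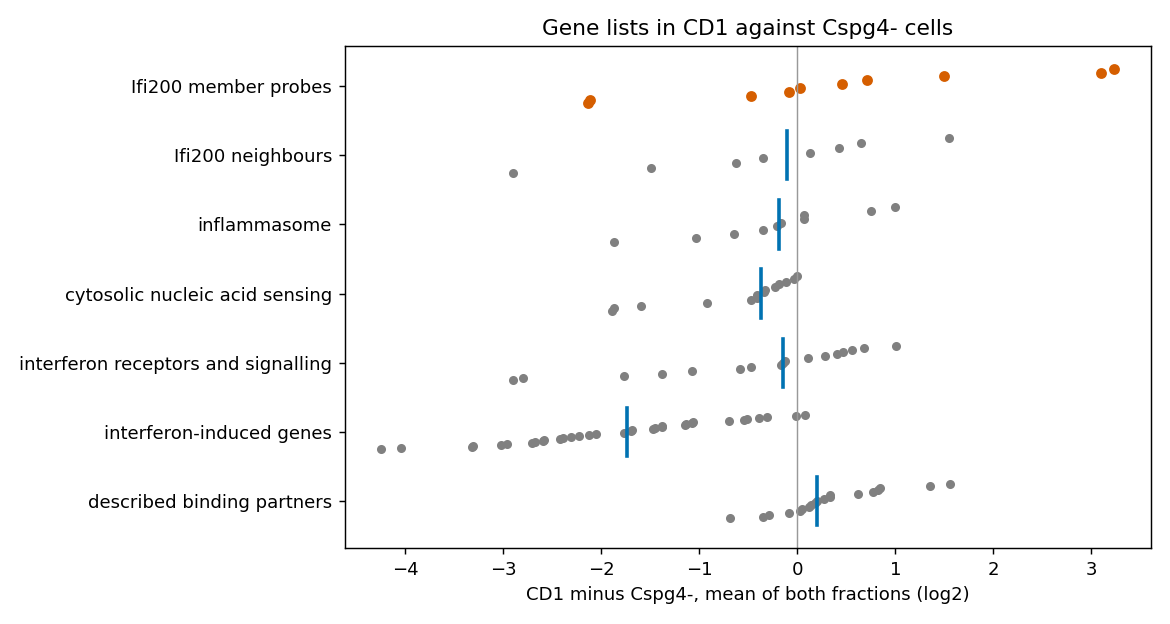
CD1 minus Cspg4- difference averaged over both fractions (x axis, log2), 1 point per member probe in orange and per gene of each list in grey, with the list's median as a blue bar. Member probes run from below -2 to above 3, while the interferon-induced list has its median at -1.73.

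Upstream sequence was compared because interferon-induced genes often carry an interferon-stimulated response element. RefSeq windows (GRCm38.p6, 250 bases before to 50 after each gene's start) were at hand for 12 of the 13 cluster genes. The gene without a window was Ifi204. The core GAAA, any 2 bases, GAAA, searched on both strands, was held by 3.44% of 32851 windows and by those of 9 of the 12 genes. It was found neither in the Ifi202b and Aim2 windows, whose genes were higher in CD1, nor in that of Ifi209 (Pyhin1), which was lower there. Among genes with the core, the Mnda probe (Ifi211 and Ifi205) differed by -2.33 and -1.89, past 2-fold lower in CD1. AI607873 (Ifi207) differed by 0.75 and 0.54 and Mndal by 0.23 and 0.62, neither past 2-fold. Probes of Ifi203 and of Pydc3 (Ifi208) disagreed, and 1 of the 2 Ifi203 windows held no match. The motif TTCNNNGAA, to which STAT dimers bind, reads alike on both strands. It was held by 8.30% of all windows and by 1 of the 12 cluster genes with windows, Ifi202b. That is about the share over all windows, so nothing is read from this match. Stretches around the matches are printed with the match in capitals.
Ifi205, chr1:174031865-174031904, minus strand: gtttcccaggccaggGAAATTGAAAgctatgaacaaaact
Ifi211 (Mnda), chr1:173913059-173913098, minus strand: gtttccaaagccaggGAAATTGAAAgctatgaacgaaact
Ifi203, chr1:173942503-173942542, minus strand: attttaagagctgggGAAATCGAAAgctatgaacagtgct
Ifi208 (Pydc3), chr1:173673592-173673631, plus strand: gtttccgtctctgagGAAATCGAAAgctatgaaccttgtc
Ifi202b, chr1:173982969-173983007, minus strand: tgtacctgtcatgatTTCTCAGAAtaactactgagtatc
These coordinates are of GRCm38.p6 and not of mm9, the build of the probe positions. A match describes letters in a window and is not evidence of binding.

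Sdc4+ arrays were then set against Sdc4- arrays, the contrast with 3 arrays on each side and the one on which the members were not selected. No member probe passed the test: adjusted p-values in limma lay between 0.606 and 0.994, and every member's groups overlapped. None had an unadjusted p under 0.05 either, the smallest being 0.075. Over the 27261 probes tested, 1 (0.00367%) had an adjusted p under 0.05, 2380 had an unadjusted p under 0.05, and 15.8% had groups that did not overlap. Slide row and Sdc4 label cannot be told apart here, since all Sdc4+ arrays lay in another row than the Sdc4- arrays. The summed linear level of the 8 satellite and muscle cell markers also moved with the label: it was 0.396, 0.538 and 0.518 times the 75th percentile in the Myf5SOR+, Cspg4- and CD1 Sdc4+ cells, and 3.68, 4.98 and 17.9 times in the B195AP+, Cspg4- and CD1 Sdc4- cells. Myh3 was the largest term of the sum in the Sdc4- cells, at 1.23, 1.84 and 3.79 in the same order on the log2 scale. Between 1 and 4 of the 8 markers were well above background in Sdc4+ and 5 or 6 in Sdc4- cells, Pax7 and Myf5 on no array. The part of these markers in the values below was not tested.

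For Ifi202b the Sdc4+ mean was 0.33 ± 5.30 (SD, n = 3) and the Sdc4- mean 0.48 ± 5.56 (SD, n = 3) by A_51_P151182. Each group ran from background to about 5 over its 3 arrays, which differ both in line and in population. The difference was -0.16 with an SE of 3.40 (limma, adjusted p = 0.993). Within the lines present in both groups it was -0.93 in Cspg4- and 0.11 in CD1 cells. With line as a fixed block it was -0.41 with an SE of 0.32 (limma, adjusted p = 0.736). Aim2 differed by 1.00 (SE 0.73, adjusted p = 0.726), with 0.48 in Cspg4- and 1.14 in CD1 cells. Leaving out 1 array, the Aim2 value was 0.36 without CD1 Sdc4+, 0.43 without B195AP+ and 1.58 without CD1 Sdc4- cells. Mnda differed by 0.32 (SE 0.72, adjusted p = 0.915), with 0.28 in Cspg4- and -0.16 in CD1 cells.

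Ifi203 probe A_55_P1988202 had the smallest p of the members, with a difference of -0.50 (SE 0.24, adjusted p = 0.606 in limma). It was -0.26 in Cspg4- and -0.60 in CD1 cells. A_55_P1966731 differed by -0.64 (SE 0.42) and A_55_P1998843 by -1.16 (SE 0.77), and both were also lower in the Sdc4+ fraction of each line. Without the Myf5SOR+ array these became -0.27 and -0.31, and A_55_P1966731 was -0.36 without CD1 Sdc4- and -0.97 without CD1 Sdc4+ cells. The Ifi204 probes differed by 0.10 (SE 0.19) and 0.08 (SE 0.24), the smallest among the members. The SE for Ifi202b (3.40) was close to its CD1 minus Cspg4- difference itself (3.75 in the Sdc4+ fraction).

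None of the lists held a gene past the threshold of the limma fit. Over all 19700 gene names tested, 1676 had an unadjusted p under 0.05 in limma, and 8547 were higher and 11153 lower in Sdc4+. Of 33 interferon-induced genes tested 0 passed and 1 had an unadjusted p under 0.05. Of these genes 7 were higher and 26 lower in Sdc4+, with a median of -0.48 beside -0.056 over all names. Of 17 signalling genes 0 passed and 2 had an unadjusted p under 0.05, among them Irf1, an interferon-induced transcription factor, at 1.44 (SE 0.33, adjusted p = 0.435 in limma). Of 18 binding partners 0 passed and 3 had an unadjusted p under 0.05, and of 6 neighbours 0 and 1. Of 14 sensors and 9 inflammasome genes 0 passed and 0 had an unadjusted p under 0.05.

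**Figure D5:**
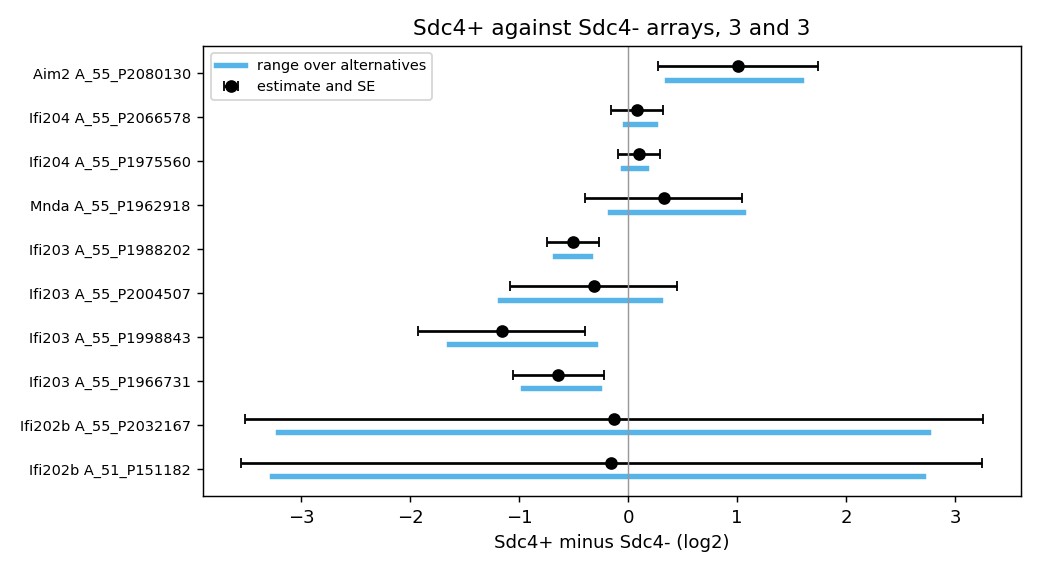
Sdc4+ minus Sdc4- difference of each member probe (x axis, log2) as the limma estimate with its SE (black, 3 arrays in each group) and the range over the alternative settings (blue). The Ifi202b probes have SEs of 3.39 and 3.40, and the Ifi204 probes lie near 0.

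Several family members are also expressed in blood cells, whose markers were not even across the arrays. Of 5 leukocyte markers 2 or 3 were well above background per array, and the pan-leukocyte genes Ptprc and Lcp1 were so on no array. The summed linear level of the 5 was 0.323 and 0.521 in CD1 Sdc4+ and Sdc4- cells and 0.680 and 0.543 in Cspg4- cells, where 1 is the 75th percentile. Cspg4+ cells stood at 0.964, Myf5SOR+ cells at 0.416 and B195AP+ cells at 0.497. Of 8 macrophage markers on the array 5 or 6 were well above background, Lyz2 and Mrc1 on no array, while Itgam (4.6 to 5.89) and Csf1r (1.86 to 2.94) were above the 75th percentile on every array. Their summed level was 40.3 and 40.5 in CD1, 57.7 and 53.5 in Cspg4-, 59.4 in Myf5SOR+, 65.6 in B195AP+ and 44.7 in Cspg4+ cells. Both sums were thus lower in CD1 than in Cspg4- cells of the same fraction, opposite to Ifi202b and Aim2 and in the direction of Mnda. For leukocytes in the Sdc4- fraction the gap was small (0.521 against 0.543). No error was worked out for the sums, so a direction is not read there. The single markers did not all move with the sums. Itgam, the largest term of the macrophage sum, and Cd52 were lower in CD1 in both fractions. Csf1r was higher in both, at 2.94 and 2.21 in CD1 Sdc4+ and Sdc4- cells against 2.62 and 1.87 in Cspg4- cells, and so was Cd14. Cd68, Fcer1g and Coro1a went opposite ways in the Sdc4+ and Sdc4- fractions. The part of these markers in the results was not tested.

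Genes with the pattern most like each member's over the 7 arrays were named by Pearson correlation, as a description over points that share lines, among 4853 probes with an SD of at least 0.5. For Ifi202b they were Col20a1 (r = 0.956), Vsig8 (0.954) and Unc13b (0.943). Vsig8 ran from -0.71 in B195AP+ to 2.86 in CD1 Sdc4+ cells. For Mnda they were Trabd2b (0.990), Fcrlb (0.988) and Ptplad2 (0.986), all lowest in CD1 cells. For Aim2 they were Serpina3h (0.974), Pam (0.974) and Fas (0.971), a death receptor gene that ran from 0.092 in B195AP+ to 1.70 in CD1 Sdc4+ cells. For Ifi203 A_55_P1988202 they were Lmo2 (0.986), Scnn1b (0.981) and Slc16a12 (0.981). For Ifi204 A_55_P1975560, whose own range was 0.40, they were Pik3ip1 (0.964), Kcnu1 (0.938) and Mfsd7a (0.931). Between members, the Ifi202b probe A_51_P151182 had r = 0.806 with Aim2 and -0.58 with Mnda over the 7 arrays.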

How the data were processed

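Total RNA of 7 cell populations was amplified with a low-input kit and hybridised to 1 Agilent mouse array each, per the labels' protocols; the labels name biotin, while the files hold 1 green channel. The deposited intensity values were made by Agilent Feature Extraction 11.5.1.1 on probes placed in mm9, per the file headers. A deposited series table of log2 values, for which the submitters' processing notes name lumi, served as an alternative. Its column medians are 5.15 to 5.17, and its centring is unknown. Each file has 62976 spots, of which 59305 are non-control spots of 55681 probes. The number of arrays limits the precision.

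Control spots were dropped, spots marked as outliers were set to missing, log2 of the processed intensity was taken relative to the 75th percentile of each array, and spots of a probe were averaged. Probes well above background on at least 3 of 7 arrays entered a fit of 3 group means (limma 3.58.1 in R 4.3.3), with Benjamini-Hochberg adjustment at 0.05, after tests on simulated data. Each population has 1 array, so the p-values measure the spread between the arrays of a group, which differ in line and population. The main fit does not pair the lines present in both groups. Comparisons of single arrays have no test. Alternatives were normexp (offset 50), quantile normalization, the series table, other filters, line as a block, the streaked region left out and arrays left out. From each of 6 lists the 4 brightest genes are named, and for each member the 3 genes most like it; other names chosen after their values were seen are marked so. Some genes of the lists are counted but not reported here by name. The members and lists were chosen with earlier results of these data known. Gene names follow the files, with current symbols from RefSeq (GRCm38.p6).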

Additional observations from a re-analysis of the deposited data

Results flagged for a closer look

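The Sdc4+ minus Sdc4- difference of Ifi202b probe A_55_P2032167 was -0.89 in the Cspg4- cells and 0.22 in CD1 cells, opposite ways and each larger than 2 times the spot error. The other Ifi202b probe, A_51_P151182, gave -0.93 in Cspg4- and 0.11 in CD1 cells, the latter within spot error (0.18). For Ifi203 probe A_55_P2004507 it was -0.99 in Cspg4- and 0.63 in CD1 cells, but of these 4 arrays only Cspg4- Sdc4- was well above background. With 1 array on each side in each line, whether the lines differ in this was not tested.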

How the results depend on the processing

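The count of member probes past 2-fold the same way in both fractions was 5. It was 3 with normexp background correction, 3 in the deposited series table and 2 past 4-fold, and 5 with quantile normalization or with outlier-marked spots kept. The differences of the Ifi202b probes and of Mnda kept their direction and stayed past 2-fold in both fractions under these settings of the scaling. The number of probes with an adjusted p under 0.05 for Sdc4+ against Sdc4- (1) was 0 with normexp, with probes well above background on all 7 arrays, with 1 probe per gene name, with line as a fixed block, without the streaked region and without both CD1 arrays. It was 6 with line as a random block (consensus correlation 0.576), and 0 to 0 when any of the 6 arrays was left out. No member probe passed under any setting run (adjusted p from 0.283 to 0.998).

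The sign of several small Sdc4 differences turned. Leaving out 1 array at a time, Ifi202b A_51_P151182 ranged from -3.27 to 2.70 (2.70 without Myf5SOR+, 2.08 without CD1 Sdc4- and 0.72 without Cspg4- Sdc4- cells) and A_55_P2032167 from -3.22 to 2.75 (2.75, 2.05 and 0.78). Mnda ranged from -0.17 (without CD1 Sdc4-; -0.11 without Cspg4- Sdc4+) to 1.05 and Ifi204 A_55_P2066578 from -0.029 (without CD1 Sdc4+; -0.018 without B195AP+) to 0.25. Ifi203 A_55_P2004507 ranged from -1.18 to 0.29 (without Cspg4- Sdc4-; 0.073 without CD1 Sdc4+). With line as a fixed block the Ifi204 probes read -0.017 (A_55_P2066578) and -0.048 (A_55_P1975560), and in the series table the Ifi202b probes read 0.039 (A_51_P151182) and 0.027 (A_55_P2032167). The causes were not tested. No paired analysis was possible by replicate number, because every label carries number 1; the pairing by line is the fixed block, which also moved Mnda from 0.32 to 0.064. Each population has 1 array, so no difference between populations has a replicate check, and values near background have no reliable order.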
